A study of Homo sapiens with 12 samples.

Results

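A set of 43 interferon-stimulated genes was followed through 12 bulk RNA-seq libraries of RCC4 cells, as the rows of the deposited count tables that carry their symbols, out of 23106 symbols in all. The members were picked by symbol as genes induced by interferon, and the rule uses no measured value. The list was nonetheless chosen with earlier results of these data known. RCC4 is an established line of human clear cell renal carcinoma (ccRCC) that lacks functional VHL, so that the hypoxia-inducible factors HIF-1α and HIF-2α persist at ordinary oxygen. All cells were grown at ordinary oxygen and were harvested 48 h after reverse transfection with pools of siRNA at a total of 2 nM. Control siRNA cells received 2 nM of non-targeting pool, HIF1A siRNA cells received 1 nM against HIF1A with 1 nM of control pool, HIF2A siRNA cells received 1 nM against EPAS1, the gene of HIF-2α, with 1 nM of control pool, and the double knockdown received 1 nM of each HIF pool and no control pool. There were 3 replicates of each, numbered in the labels, and all 4 groups are the same single line, so that every value describes RCC4 and no other ccRCC line.

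Interferon-stimulated genes are the output of a relay that starts outside or inside the cell. Type I and type III interferons bind their receptors and activate the kinases JAK1 and TYK2, which phosphorylate STAT2 and other STAT proteins; STAT2 enters with IRF9 into a complex named ISGF3 that binds the interferon-stimulated response element (ISRE). Double-stranded RNA in the cytoplasm, sensed by RIG-I (DDX58) and MDA5 (IFIH1), leads to interferon production, and many sensors and transcription factors of the relay are themselves induced by it. The question put to the counts was whether knockdown of HIF1A, EPAS1 or both moved these genes, and whether the replicate pairs agreed.

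Many promoters of interferon-stimulated genes carry the ISRE, and it was looked for in this set. RefSeq promoter windows (GRCh38.p14, 250 bases before to 50 bases after the annotated start) were present for 35 of the 43 members. The core of the ISRE, read here as GAAA, any 2 bases and GAAA again, was found on either strand in 20 of those 35 windows (57.1%), against 996 of 27305 windows of all genes (3.65%). A total of 15 of the 20 held at least 2 such cores, overlapping copies included. The interferon-gamma element TTCNNNGAA was found in 9 of 35 (25.7%), against 7.88% of all windows, and the HIF core ACGTG in 6 of 35 (17.1%), against 21.6%. Letters in a window describe the sequence and do not show that a factor binds there. The 8 stretches printed here were chosen because their genes appear in the results that follow. Capitals mark the ISRE core, which reads TTTC, 2 bases and TTTC where it lies on the other strand.
ISG15, chr1:1013369-1013414, plus strand: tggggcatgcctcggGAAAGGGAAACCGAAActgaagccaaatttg
IFIT1, chr10:89392492-89392544, plus strand: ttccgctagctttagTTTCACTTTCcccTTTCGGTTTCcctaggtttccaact
IFIT3, chr10:89327826-89327899, plus strand: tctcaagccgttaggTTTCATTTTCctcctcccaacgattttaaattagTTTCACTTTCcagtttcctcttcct
BST2, chr19:17405730-17405775, minus strand: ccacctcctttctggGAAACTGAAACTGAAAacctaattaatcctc
IFI27, chr14:94110613-94110665, plus strand: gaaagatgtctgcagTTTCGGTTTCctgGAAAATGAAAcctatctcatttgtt
HERC5, chr4:88456979-88457069, plus strand: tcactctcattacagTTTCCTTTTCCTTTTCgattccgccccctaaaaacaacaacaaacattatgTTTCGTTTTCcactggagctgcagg
DDX60, chr4:168318781-168318855, minus strand: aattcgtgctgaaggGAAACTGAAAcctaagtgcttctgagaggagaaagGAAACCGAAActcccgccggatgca
SAMD9, chr7:93118091-93118130, minus strand: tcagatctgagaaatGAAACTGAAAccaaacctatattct

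In these stretches the cores of ISG15 and BST2 overlap each other, those of IFIT1 stand a few bases apart, and SAMD9 has a single core. IFI27 has 1 core in each orientation.

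The 12 libraries held 13263168 to 20451433 counts each. Of 23106 symbols, 13000 passed the expression filter and were tested. HIF1A RNA was at 12.8 to 31.2% of the paired control with HIF1A siRNA and at 20.5 to 55.7% in the double knockdown, and EPAS1 RNA was at 5.73 to 8.93% with HIF2A siRNA and at 4.38 to 8.49% in the double knockdown. The factor not targeted differed as well, with EPAS1 RNA at 62.3 to 78.6% of the paired control with HIF1A siRNA and HIF1A RNA at 92.2 to 199% with HIF2A siRNA. CA9, a HIF-1α target, was at 6.70 to 10.6% with HIF1A siRNA and at 124 to 143% with HIF2A siRNA. All 8 markers of renal epithelium and clear cell carcinoma passed the filter, with a summed level of 4028 to 7517 CPM (library counts scaled to a common total). Of 8 leukocyte markers 3 passed, CD74 at 84.9 to 185 CPM, CD68 at 32.6 to 65.1 CPM and LYZ at 0.268 to 2.16 CPM, while the defining markers PTPRC, CD3E and TYROBP were at 0 in every library. Their sum was 171 to 192 CPM in control, 194 to 246 CPM with HIF1A siRNA, 118 to 226 CPM with HIF2A siRNA and 203 to 235 CPM in the double knockdown. Of 4 fibroblast and pericyte markers 3 passed, COL1A1 at 16.6 to 71.1 CPM, PDGFRB at 0.647 to 8.58 CPM and RGS5 at 1.73 to 10.4 CPM, with COL3A1 at 0. None of 4 endothelial markers passed, and PECAM1 was at 0. The part of these markers in the results was not tested.

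Of the 43 members, 39 passed the filter. The other 4 were MX2, at 0 to 12 counts, IFITM2, at 0 to 4, TAP1, at 0 in 11 libraries and 1 in the other, and PSMB8, at 0 in all 12. PSMB8 and TAP1 belong to the machinery of antigen processing, encode an immunoproteasome subunit and a peptide transporter, and lie beside PSMB9 in the major histocompatibility complex on chromosome 6. Some but not all other genes of that region were also low, with HLA-E at 0 to 6 counts and TAP2 at 8 to 57. The authors removed fragments that did not map to a single place, and the part of that step in these low counts was not tested, so a 0 here is not a measure of absence. IFITM1, IFITM2 and IFITM3 are neighbouring near-copies and are likewise uncertain. Because the strand setting of the counting is not stated, the same holds for the members that overlap another annotated gene, 18 of the 43, among them the pairs CMPK2 with RSAD2 and PARP9 with DTX3L.

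Replicate number went with larger differences among the members than siRNA did. Each gene's log2(CPM + 0.5) was set against its own mean over the 12 libraries, and the median of these deviations over the 39 genes was taken for each library. With HIF1A siRNA it was 0.85 in replicate 1, −0.20 in replicate 2 and −0.31 in replicate 3. All 39 genes were above their own mean in HIF1A siRNA replicate 1, and 25 of 39 (64.1%) had their highest level of the 12 libraries there, against 6.45% of all genes tested. With HIF2A siRNA the medians were 0.55, −0.44 and −0.69, and 15 of 39 (38.5%) had their lowest level in replicate 3, against 7.75% of all genes. With control siRNA they were 0.26, 0.09 and −0.51, and in the double knockdown 0.27, 0.28 and −0.53. Every group therefore held a replicate 1 above 0 and a replicate 3 below 0, and the ranges of the groups overlapped.

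**Figure D1:**
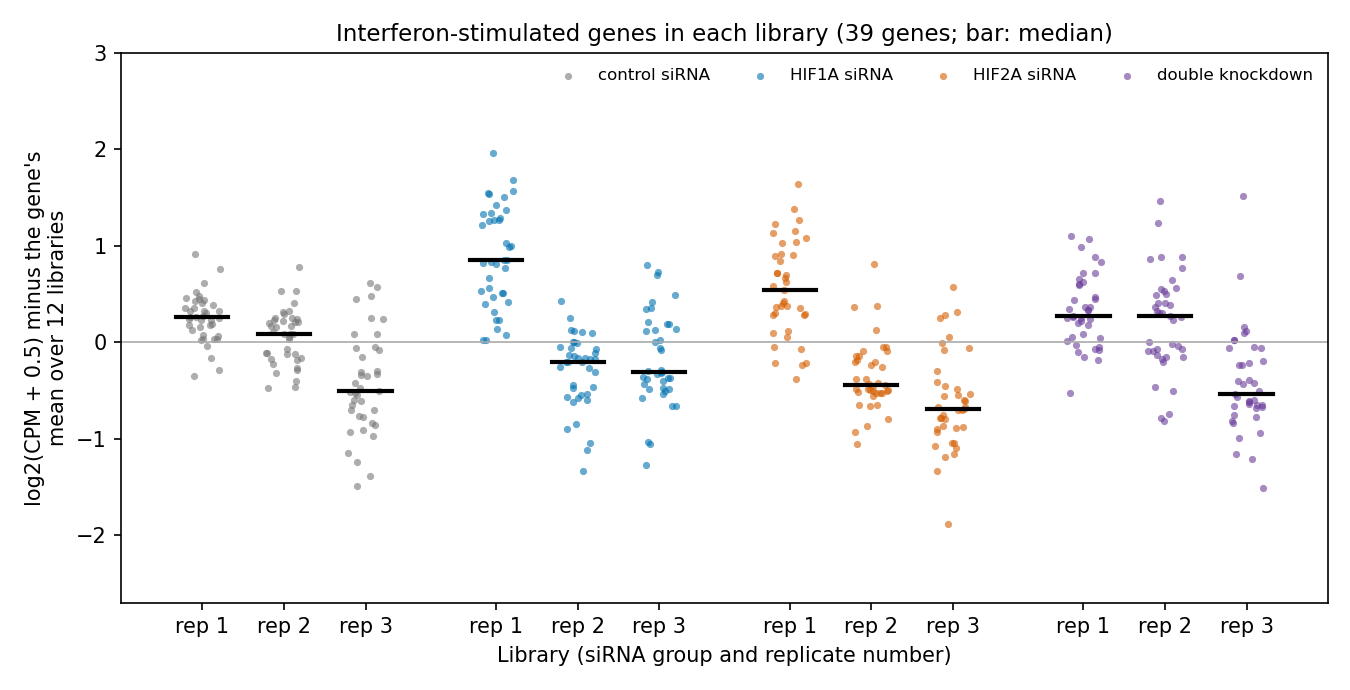
Each point is 1 of 39 interferon-stimulated genes, plotted for each of the 12 libraries as log2(CPM + 0.5) minus the gene's mean over the 12 libraries, with a bar at the median of the library. The medians run from 0.85 in HIF1A siRNA replicate 1 to −0.69 in HIF2A siRNA replicate 3, and replicate 3 has the lowest median in all 4 groups.

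The summed level of the 43 members gave the same picture on a linear scale. It was 2061, 1904 and 1462 CPM in control siRNA replicates 1, 2 and 3, and 3209, 1623 and 1612 CPM with HIF1A siRNA. It was 2491, 1501 and 1228 CPM with HIF2A siRNA, and 2059, 2245 and 1295 CPM in the double knockdown. Replicate 3 had the lowest sum in each group, and the ranges of the 4 groups overlapped. The sum weights members by their abundance and by gene length.

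Sums of squares were pooled over genes and divided between replicate number, siRNA and the remainder. Replicate number took 63.6% of the pooled sum over the 39 members and siRNA 12.2%. Pooling gives more weight to the genes that vary most. The share of replicate number taken gene by gene had an SD of 19.7 over genes. Over all genes tested the shares were 49.8% and 25.8%. The share of replicate number was highest, 72.7%, for the RNA-binding proteins and oligoadenylate synthetases, and was 66.8% for the induced genes of other function, 65.6% for the virus restriction factors, 61.3% for the ISG15 and ADP-ribosylation genes and 57.7% for the sensors and transcription factors. PSMB9 was the exception, with 1.69% for replicate number, at 1 to 68 counts per library.

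The replicate pattern was not uniform across the set. A total of 15 members had their lowest level in replicate 3 in all 4 groups (38.5%, against 20.5% of all genes tested): IRF1, IRF7, IFIT1, IFIT2, IFIT3, IFIT5, OAS1, BST2, TRIM22, SAMD9L, UBE2L6, PARP9, IFI27, IFI35 and XAF1. In contrast, DDX58, HERC5 and DTX3L had their highest level in replicate 3 in all 4 groups (7.69%, against 23.7%). Averaged over the groups, replicate 3 lay below the mean of replicates 1 and 2 by a log2 difference of −1.91 for IFI27, −1.32 for MX1 and −1.19 for IFIT1. It lay above by 0.88 for HERC5, 0.60 for DDX58, 0.45 for DDX60 and 0.34 for SAMD9. HERC5 is the ligase that attaches ISG15 to proteins, whereas ISG15 itself was lower in replicate 3 than in replicate 1 of every group. The ISRE core was present in 5 of 12 promoter windows of the members lowest in replicate 3 and in 14 of 21 windows of the other tested members. Replicates 1 and 2 differed as well, with 17 members (43.6%) higher in replicate 1 than in replicate 2 in all 4 groups, against 8.83% of all genes.

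HIF1A siRNA against control siRNA asks what partial knockdown of HIF1A does to the set. No member passed the test (edgeR quasi-likelihood test with Benjamini-Hochberg adjustment over 13000 genes, adjusted p under 0.05), where 1.39% of all genes tested were called. At an unadjusted p under 0.05 there were 3 members, all higher with the siRNA. Of the 13000 genes tested, 400 were higher and 719 lower at that p. DESeq2 called 1 member, IFI35, and its share of all genes is not given here. The fitted log2 fold change was above 0 for 32 members and below 0 for 7, with a median of 0.23, against 0.00 over all genes. That median is not shared by the pairs: 33 members were higher with HIF1A siRNA in pair 1, 6 in pair 2 and 29 in pair 3, and the median ratios to control were 1.44, 0.819 and 1.16. A total of 30 members were higher in pair 1 and lower in pair 2 (76.9%, against 26.2% of all genes), and the 3 pairs disagreed in direction for 35 of 39 (89.7%, against 69.8%).

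ISG15, a ubiquitin-like protein that is conjugated to other proteins, went opposite ways in the pairs. It was at 39.1, 57.1 and 33.5 CPM in control replicates 1, 2 and 3, and at 129, 31.5 and 38.6 CPM with HIF1A siRNA. The ratios of the pairs were 3.26, 0.555 and 1.15. The first replicate with HIF1A siRNA was above every control library, the second was below every one, and the fitted log2 fold change was 0.42 (SE 0.39, adjusted p = 0.857, edgeR). IFIT1, which binds foreign RNA at its 5′ end and was shown above with a pair of ISRE cores, was at 66.3, 59.4 and 25.1 CPM in control and at 117, 43.2 and 37.1 CPM with HIF1A siRNA. MX1, a dynamin-like GTPase that traps viral nucleoproteins, was at 7.54, 6.87 and 2.60 CPM in control and at 21.6, 4.46 and 4.57 CPM with HIF1A siRNA. Both were higher in pairs 1 and 3 and lower in pair 2, and their groups overlapped.

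Of the transcription factors, STAT2, the partner of IRF9 in ISGF3, and IRF1 varied less. STAT2 was at 55.3, 48.5 and 50.5 CPM in control, 62.1, 46.5 and 67.2 CPM with HIF1A siRNA, 44.6, 49.4 and 50.5 CPM with HIF2A siRNA and 54.8, 50.2 and 57.0 CPM in the double knockdown. IRF1 was at 73.4, 72.7 and 58.8 CPM in control and at 81.4, 61.1 and 43.5 CPM with HIF1A siRNA. It was at 74.7, 66.7 and 41.5 CPM with HIF2A siRNA and at 64.9, 75.3 and 38.8 CPM in the double knockdown. For both genes all groups overlapped, and IRF1 was lowest in replicate 3 each time.

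IFI27, a mitochondrial protein strongly induced by type I interferon, varied widely between replicates. It was at 7.91, 9.33 and 1.92 CPM in control, 26.0, 5.18 and 2.82 CPM with HIF1A siRNA, 15.9, 3.82 and 2.81 CPM with HIF2A siRNA and 10.7, 15.6 and 1.90 CPM in the double knockdown. IFI6, a membrane protein that restricts flaviviruses, was at 89.8, 90.9 and 54.9 CPM in control and at 235, 53.6 and 61.4 CPM with HIF1A siRNA. It was at 167, 55.7 and 37.9 CPM with HIF2A siRNA and at 94.9, 123 and 39.3 CPM in the double knockdown. In both genes replicate 1 with HIF1A siRNA was the highest of the 12 libraries.

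OAS1 was at 21.7, 19.4 and 9.92 CPM in control and at 51.3, 12.4 and 11.7 CPM with HIF1A siRNA. It was at 33.1, 8.78 and 7.95 CPM with HIF2A siRNA and at 28.8, 29.7 and 10.7 CPM in the double knockdown. IFITM3, the entry inhibitor beside IFITM1, was at 170, 238 and 125 CPM in control, 381, 184 and 145 CPM with HIF1A siRNA, 315, 110 and 118 CPM with HIF2A siRNA and 247, 352 and 129 CPM in the double knockdown. The second replicate was thus above the first in control and double knockdown and below it with either single siRNA, and the groups overlapped. PSMB9 was at 0.797, 1.05 and 0.062 CPM in control, 0.847, 0.144 and 0.0486 CPM with HIF1A siRNA, 0.643, 1.84 and 1.48 CPM with HIF2A siRNA and 1.87, 0.677 and 3.31 CPM in the double knockdown, at 1 to 68 counts per library. Its groups overlapped, and counts this low give no firm value.

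Values in the groups not yet given for the genes above and for 4 others complete their levels. ISG15 was at 55.7, 87.2 and 29.7 CPM in the double knockdown, MX1 at 14.8, 3.88 and 2.23 CPM with HIF2A siRNA and 14.2, 8.35 and 4.04 CPM in the double knockdown, and IFIT1 at 76.8, 34.2 and 25.1 CPM with HIF2A siRNA and 74.5, 69.8 and 24.9 CPM in the double knockdown. IRF7 was at 71.7, 23.0 and 19.8 CPM with HIF1A siRNA and 38.2, 33.2 and 10.5 CPM in the double knockdown, and IRF9 at 42.9, 20.6 and 23.8 CPM with HIF1A siRNA and 30.2, 35.4 and 20.5 CPM in the double knockdown. BST2 was at 387, 227 and 162 CPM with HIF1A siRNA and 294, 291 and 130 CPM with HIF2A siRNA, and IFITM1 at 14.9, 3.74 and 5.55 CPM with HIF1A siRNA and 12.5, 4.01 and 2.91 CPM with HIF2A siRNA. With HIF1A siRNA replicate 1 was the highest of the group in IRF7, IRF9, BST2 and IFITM1.

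The members with the largest fitted changes included several of low level. XAF1 was at 16.5, 28.4 and 12.8 CPM in control, 29.8, 22.1 and 10.1 CPM with HIF1A siRNA, 24.0, 11.3 and 6.84 CPM with HIF2A siRNA and 20.8, 23.2 and 9.30 CPM in the double knockdown. IFI44L was at 14.8, 15.3 and 8.99 CPM in control, 37.0, 9.78 and 11.4 CPM with HIF1A siRNA, 23.7, 7.70 and 7.63 CPM with HIF2A siRNA and 19.7, 27.0 and 12.6 CPM in the double knockdown. IFIT2, a relative of IFIT1, was at 40.4, 28.0 and 21.3 CPM in control, 67.4, 23.4 and 18.7 CPM with HIF1A siRNA, 62.0, 23.0 and 14.2 CPM with HIF2A siRNA and 26.5, 23.9 and 11.5 CPM in the double knockdown. In XAF1 and IFIT2 replicate 3 was the lowest of each group. OAS2 was at 4.11, 3.76 and 1.30 CPM in control, 8.79, 1.22 and 3.79 CPM with HIF1A siRNA, 6.05, 1.72 and 0.371 CPM with HIF2A siRNA and 3.89, 3.69 and 1.61 CPM in the double knockdown. OASL, an OAS-like protein without synthetase activity, was at 1.84, 0.401 and 0.620 CPM in control, 2.49, 0.0719 and 0.0973 CPM with HIF1A siRNA, 3.37, 0.700 and 0.265 CPM with HIF2A siRNA and 2.12, 0.376 and 0.195 CPM in the double knockdown. CMPK2, a mitochondrial nucleotide kinase, was at 2.27, 1.15 and 0.558 CPM in control, 3.07, 0.791 and 1.12 CPM with HIF1A siRNA, 3.86, 0.763 and 0.742 CPM with HIF2A siRNA and 3.44, 1.28 and 1.61 CPM in the double knockdown. Replicate 1 was the highest of each group in all 3, and all their groups overlapped.

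The order of pairs seen for ISG15 returned in IFI6, IFI27 and IFI44L, with log2 ratios of 1.39, 1.66 and 1.29 in pair 1, −0.76, −0.79 and −0.62 in pair 2 and 0.16, 0.46 and 0.32 in pair 3. It was also seen for IRF7, the factor that amplifies interferon production (1.35, −0.64 and 0.20), for OAS1, the synthetase of the RNase L activator (1.22, −0.62 and 0.23), and for IRF9, the DNA-binding subunit of ISGF3 (0.81, −0.29 and 0.33). IRF1, the interferon-gamma-responsive factor, had log2 ratios of 0.15, −0.25 and −0.43 in pairs 1, 2 and 3. XAF1, a proapoptotic gene, had 0.83, −0.36 and −0.33. None of these changes passed the test.

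Only 4 members kept 1 direction in all 3 pairs with HIF1A siRNA. DDX58, PARP9 and IFI35 were higher in each (7.69%, against 14.8% of all genes), and SAMD9 was lower (2.56%, against 15.4%). IFI35, a leucine zipper protein, was at 23.0, 21.4 and 12.1 CPM in control and at 54.5, 24.2 and 18.1 CPM with HIF1A siRNA, with pair ratios of 2.34, 1.13 and 1.48. Its fitted log2 fold change was 0.69 (SE 0.19, adjusted p = 0.109, edgeR), the smallest adjusted p of the set, and the groups overlapped. PARP9, which acts with DTX3L in ADP-ribosylation and ubiquitination, had ratios of 1.25, 1.19 and 1.46 (log2 fold change 0.37, SE 0.12, adjusted p = 0.262, edgeR).

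The count of 0 depended on replicate 2, and also on the filter and the test, since IFI35 was called without the filter and with DESeq2. Without replicate 2 in any group, 5 members were called higher with HIF1A siRNA, IFI27, IFI35, IFIT1, IFITM1 and MX1, and the median log2 fold change was 0.41. The share of all genes called in this and the later refits is not given here, so these counts stand without that comparison. IFI35 alone was called without HIF1A siRNA replicate 2 and without HIF2A siRNA replicate 2. Without HIF1A siRNA replicate 1 the median was 0.01, and without control siRNA replicate 1 it was 0.06. Without replicate 1 in any group, none was called, the median was −0.01, and 19 members were above 0 and 20 below.

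HIF2A siRNA against control siRNA asks the same of knockdown of EPAS1, with the same control libraries. No member passed the edgeR test, where 0.2% of all genes tested were called, and 2 had an unadjusted p under 0.05, both lower. Of the 13000 genes tested, 394 were higher and 475 lower at that p. DESeq2 called 0, with 3 at an unadjusted p under 0.05. The fitted log2 fold change was above 0 for 11 members and below 0 for 28, with a median of −0.15. In pair 1 there were 28 members higher with the siRNA, in pair 2 there were 10 and in pair 3 there were 9, and the median ratios were 1.19, 0.764 and 0.857. The pairs disagreed in direction for 33 of 39 members (84.6%, against 77.0% of all genes). Without replicate 2 the median was 0.05, with 21 members above 0, and without replicate 1 it was −0.30, with 7 above 0. It was −0.02 without control siRNA replicate 2 or HIF2A siRNA replicate 2, −0.29 without control siRNA replicate 1 and −0.26 without HIF2A siRNA replicate 1.

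All 7 sensors and transcription factors had a fitted value below 0 with HIF2A siRNA, from −0.44 for IRF7 to −0.09 for STAT2, and none passed the test. Of the 13000 genes tested, 6488 were below 0. The 3 pairs disagreed in direction for all 7 (100%, against 77.0% of all genes), so none was lower in every pair. IRF7 was at 27.8, 36.1 and 17.1 CPM in control and at 37.5, 17.2 and 11.4 CPM with HIF2A siRNA. IRF9 was at 24.3, 25.3 and 18.8 CPM in control and at 30.7, 11.2 and 17.7 CPM. Both were higher in pair 1 and lower in pairs 2 and 3, as was XAF1, with log2 ratios of 0.53, −1.30 and −0.86. Of the RNA-binding group 7 of 8 were below 0, of the ISG15 group 7 of 8, and of the restriction factors 4 of 9. The pairs disagreed for 87.5%, 62.5% and 77.8% of these groups. All members were counted in the same libraries, so a shared sign is not a set of separate observations.

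The members that kept a direction in all 3 pairs with HIF2A siRNA were TRIM22, higher (2.56%, against 10.9% of all genes), and OAS3, SAMD9, UBE2L6, DTX3L and PARP14, lower (12.8%, against 12.1%). PARP14, an ADP-ribosyltransferase encoded on chromosome 3, was at 103, 77.2 and 119 CPM in control and at 83.7, 64.2 and 82.4 CPM with HIF2A siRNA. It had the smallest adjusted p of the set, with a log2 fold change of −0.37 (SE 0.11, adjusted p = 0.376, edgeR). TRIM22, a restriction factor of the tripartite motif family, had ratios of 1.14, 1.17 and 1.19 (log2 fold change 0.22, SE 0.12, adjusted p = 0.768, edgeR). These small differences did not pass the test, and the shares of members that kept a direction were near or below those of all genes.

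A total of 22 of 39 members (56.4%, against 15.4% of all genes) were higher in pair 1 and lower in pair 2 with both single siRNAs. The comparisons share their controls, so these counts are not independent of each other. ISG15 was at 86.1, 33.1 and 29.1 CPM with HIF2A siRNA, close to its order with HIF1A siRNA. RSAD2, the antiviral enzyme viperin, had log2 ratios of 1.19, −1.53 and 0.68 with HIF1A siRNA and 1.21, −0.62 and −0.36 with HIF2A siRNA, at 8 or more counts per library.

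**Figure D2:**
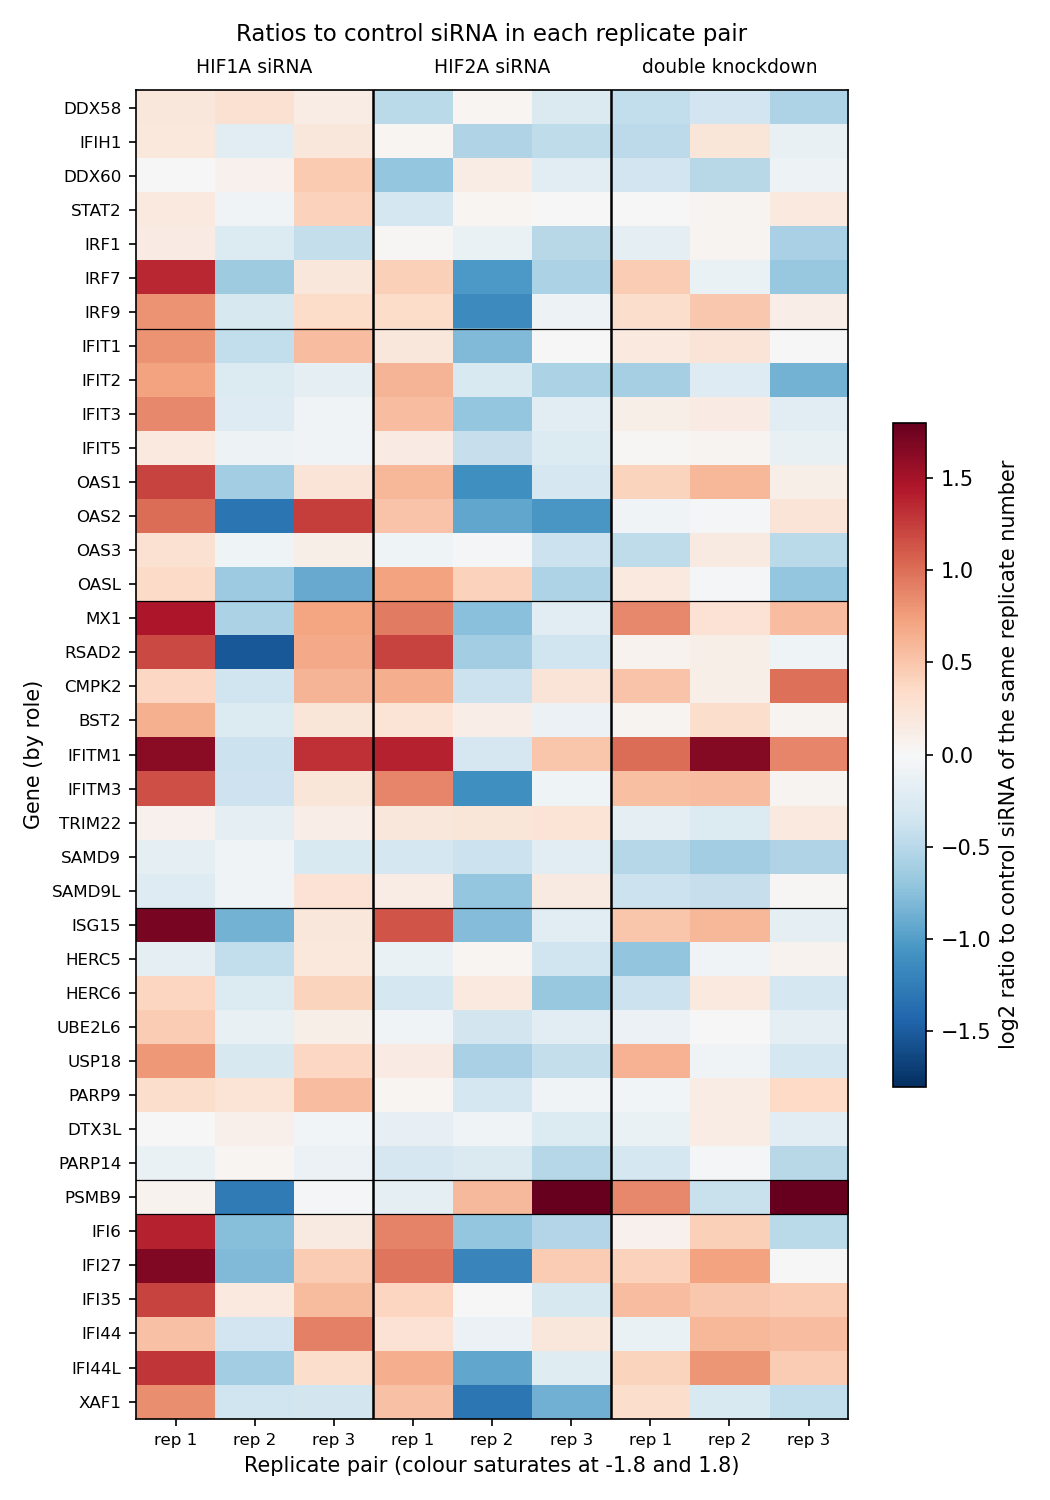
Each row is 1 of 39 interferon-stimulated genes, grouped by role, and each column is a replicate pair of HIF1A siRNA, HIF2A siRNA or the double knockdown with the control siRNA library of the same number; the colour is the log2 ratio of CPM + 0.5. With HIF1A siRNA 33 genes are above 0 in pair 1, 6 in pair 2 and 29 in pair 3, with HIF2A siRNA 28, 10 and 9, and in the double knockdown 21, 24 and 17.

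The double knockdown against control siRNA asks what partial knockdown of both factors does, with the caveat that these cells received no control pool. A total of 2 members were called, both lower (edgeR, adjusted p under 0.05), which is 2 of 39 where 10.3% of all genes tested were called and 6.42% of all genes tested were called lower. There were 6 members with an unadjusted p under 0.05, of which 2 were higher and 4 lower. Of the 13000 genes tested, 1496 were higher and 1795 lower at that p. The fitted value was above 0 for 21 members and below 0 for 18, with a median of 0.02. The median ratios of the pairs were 1.03, 1.08 and 0.947, and the pairs disagreed for 24 members (61.5%, against 48.5% of all genes).

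SAMD9, a cytoplasmic restriction factor of poxviruses, fell. It was at 27.3, 18.8 and 28.6 CPM in control replicates 1, 2 and 3 and at 19.0, 12 and 19.5 CPM in the double knockdown. The ratios of the pairs were 0.700, 0.651 and 0.687, so that it was lower in 3 of 3 pairs by similar amounts, while replicate 2 was low in every group and the groups overlapped. The log2 fold change was −0.57 (SE 0.13, adjusted p = 0.0126, edgeR). With the single siRNAs SAMD9 was at 24.1, 18.0 and 23.7 CPM (HIF1A siRNA) and at 21.8, 14.2 and 24.9 CPM (HIF2A siRNA), between control and double knockdown in all 3 pairs. Neither single change passed the test, with log2 fold changes of −0.17 (SE 0.13, adjusted p = 0.800) and −0.30 (SE 0.13, adjusted p = 0.696) by edgeR. The call on the double knockdown was made in 14 of 21 alternatives, over which the log2 fold change lay between −0.60 and −0.53 and the adjusted p (edgeR or DESeq2) between 0.00239 and 0.482. It was lost without control siRNA replicate 3 (adjusted p = 0.0558, edgeR), without double knockdown replicate 1, 2 or 3 (0.0549, 0.0634 and 0.0575), without all libraries of replicate 1 or 3 (0.102 and 0.206) and without the replicate block (0.482).

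DDX58, which encodes the RNA sensor RIG-I, fell as well. It was at 25.7, 15.2 and 31.8 CPM in control and at 18.6, 11.9 and 21.6 CPM in the double knockdown, with ratios of 0.731, 0.789 and 0.683. The log2 fold change was −0.46 (SE 0.14, adjusted p = 0.0463, edgeR), lower in 3 of 3 pairs, with overlapping groups. This call was made in 6 of 21 alternatives, with the adjusted p (edgeR or DESeq2) between 0.0179 and 0.722 and the log2 fold change between −0.53 and −0.41, and it was lost when any of the control, HIF1A siRNA or double knockdown libraries was left out (adjusted p from 0.0535 without control siRNA replicate 2 to 0.172 without double knockdown replicate 3, edgeR) and without HIF2A siRNA replicate 3 (0.0675). The other RNA sensors were not called: IFIH1, or MDA5, had log2 ratios of −0.47, 0.22 and −0.14, and DDX60, a cofactor of RIG-I, had −0.35, −0.50 and −0.09.

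**Figure D3:**
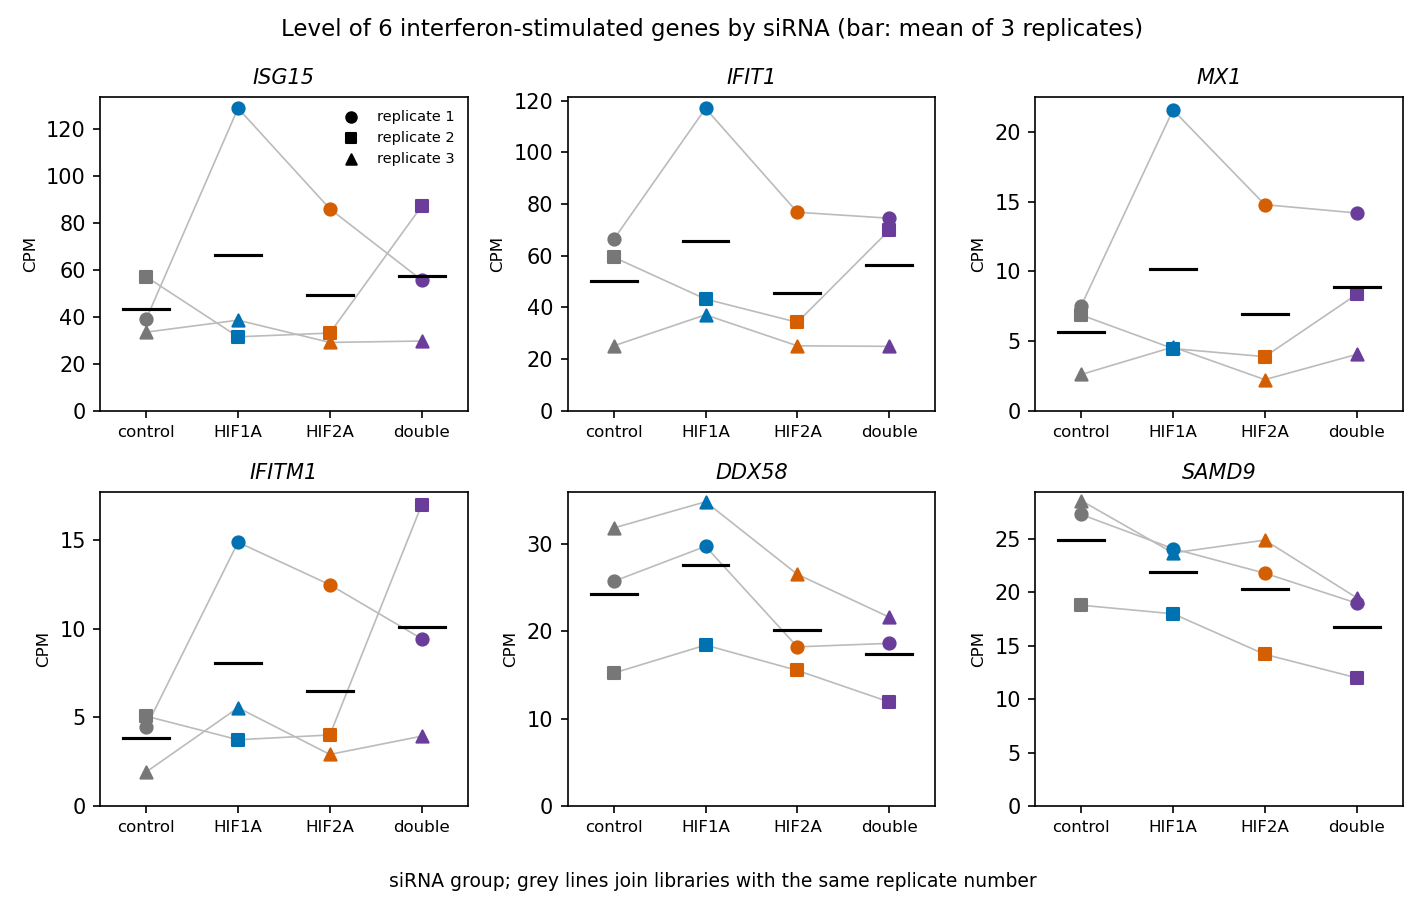
CPM of ISG15, IFIT1, MX1, IFITM1, DDX58 and SAMD9 in each library by siRNA group, with a symbol for each replicate number, grey lines between libraries of the same number and a bar at the mean of 3 replicates. ISG15 reaches 129 CPM in HIF1A siRNA replicate 1 and 31.5 CPM in replicate 2, while SAMD9 and DDX58 are lower in the double knockdown than in control in each of 3 pairs.

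The members lower in all 3 pairs of the double knockdown were DDX58, DDX60, IFIT2, SAMD9, UBE2L6 and PARP14 (15.4%, against 25.4% of all genes). Those higher in all 3 pairs were IRF9, OAS1, MX1, CMPK2, BST2, IFITM1, IFITM3, IFI35 and IFI44L (23.1%, against 26.1% of all genes). None of the higher members had an adjusted p under 0.05. IFITM1, a membrane protein that hinders viral entry, came closest. It was at 4.47, 5.07 and 1.92 CPM in control and at 9.45, 17.0 and 3.94 CPM in the double knockdown, with ratios of 2.00, 3.14 and 1.83. Its level in replicate 3 of the double knockdown was below that of control replicates 1 and 2, so the groups overlapped. The log2 fold change was 1.38 (SE 0.45, adjusted p = 0.0661, edgeR), and it was called in 8 of 21 alternatives, DESeq2 among them. It was under an adjusted p of 0.1, and 3 members were called at that threshold. The study's methods used 0.1 together with a fold change limit, for genes lowered by a single siRNA. They left the double knockdown out. IFI35 was at 34.2, 29.9 and 16.8 CPM in the double knockdown and had ratios of 1.47, 1.39 and 1.37 (log2 fold change 0.51, SE 0.19, adjusted p = 0.101, edgeR). BST2, or tetherin, which holds budding virions at the cell surface, was at 248, 268 and 139 CPM in control and at 257, 332 and 144 CPM in the double knockdown. OAS2, OASL and CMPK2, at 7 to 166, 1 to 63 and 9 to 72 counts per library, were too sparse for a firm value in any comparison.

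How many members were called changed with the libraries in the fit, and the share of all genes called in each fit is not given here. With only the 6 libraries of control siRNA and double knockdown in the fit, 7 members were called, DDX58, IFIT2 and SAMD9 lower and IFI35, IFI44L, IFITM1 and IFITM3 higher. Without replicate 2 there were 6, DDX58, IFIT2, OAS3, PARP14 and SAMD9 lower and IFITM1 higher. Without double knockdown replicate 2 alone the median log2 fold change of the 39 members was −0.20, with 10 above 0 and 29 below. In that fit 0 were called by edgeR, with 7 at an unadjusted p under 0.05. Without replicate 2 in any group the median was −0.01, with 18 above 0 and 21 below.

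Against HIF1A siRNA, the double knockdown asks what changed when 1 nM of siRNA against EPAS1 took the place of 1 nM of control pool. The groups differed in HIF1A RNA as well as in EPAS1. HIF1A was at no more than 22.2 CPM with HIF1A siRNA and at no less than 24.2 CPM in the double knockdown. The part of the control pool and of the weaker HIF1A knockdown in this comparison was not tested. A single member was called, DDX58, lower (edgeR), where 1.4% of all genes tested were called. DDX58 was at 29.7, 18.4 and 34.8 CPM with HIF1A siRNA, against 18.2, 15.5 and 26.5 CPM with HIF2A siRNA, and had pair ratios of 0.635, 0.655 and 0.625 in the double knockdown, with a log2 fold change of −0.67 (SE 0.14, adjusted p = 0.0268, edgeR). The call was made in 12 of 21 alternatives and was lost when any library of either group was left out. Without replicate 2 in any group, 6 members were called lower, DDX58, HERC6, IFI6, IFIT1, IFIT2 and OAS3. The share of all genes called in that fit is not given here, and the 1.4% does not apply to it. The set as a whole went opposite ways in the pairs, with 2, 32 and 5 members higher in pairs 1, 2 and 3. Against HIF2A siRNA, where 4.0% of all genes tested were called, no member passed the edgeR test and 5 had an unadjusted p under 0.05. Of the 13000 genes tested, 1007 were higher and 1310 lower at that p. DESeq2 called 0 members, with 4 at an unadjusted p under 0.05. There, 8, 31 and 27 members were higher in the double knockdown in pairs 1, 2 and 3.

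In the direct comparison of HIF1A siRNA with HIF2A siRNA the pair ratios use no control library, and the pairs agreed more often. The fit still held all 12 libraries, control siRNA among them. With only the 6 libraries compared in the fit, 1 member was called, IRF7, and 20 had an unadjusted p under 0.05 (edgeR). The shares of all genes in that fit are not given here, and those below are from the fit of 12 libraries. The fitted log2 fold change was above 0, that is higher with HIF1A siRNA, for 36 of 39 members, with a median of 0.39, against 0.00 over all genes. In pairs 1, 2 and 3 there were 33, 23 and 35 members higher with HIF1A siRNA, with median ratios of 1.24, 1.12 and 1.34. A total of 20 members were higher in all 3 pairs (51.3%, against 17.9% of all genes) and OASL and TRIM22 were lower in all 3 (5.13%, against 19.2%). No member passed the edgeR test, where 1.92% of all genes tested were called, while 13 had an unadjusted p under 0.05, all higher with HIF1A siRNA. Of the 13000 genes tested, 681 were higher and 888 lower at that p. DESeq2 called 2 members, IFI35 and PARP9, and its share of all genes is not given here. All members were counted in the same 6 libraries, so their common direction is not 36 separate observations.

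PARP9 had the smallest adjusted p of the direct comparison. It was at 73.9, 54.4 and 54.3 CPM with HIF1A siRNA and at 60.8, 36.4 and 35.6 CPM with HIF2A siRNA, with ratios of 1.21, 1.49 and 1.52 (log2 fold change 0.48, SE 0.12, adjusted p = 0.0678, edgeR). IFI35 followed, at 54.5, 24.2 and 18.1 CPM against 30.4, 21.6 and 9.80 CPM (log2 fold change 0.65, SE 0.19, adjusted p = 0.112, edgeR). In both genes the groups overlapped, and each was higher with HIF1A siRNA in 3 of 3 pairs. Among the transcription factors, IRF7 had log2 ratios of 0.92, 0.41 and 0.77 and IRF9 0.47, 0.85 and 0.42, while IRF1 had 0.12, −0.13 and 0.07. All 7 sensors and transcription factors, all 8 of the ISG15 group and all 6 other induced genes were above 0, as were 6492 of the 13000 genes tested. The pairs disagreed in direction for 3, 3 and 2 members of these groups.

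The direct comparison leaned on single libraries too. Without HIF1A siRNA replicate 1, the library with the highest levels, 28 members were above 0 and 11 below, with a median of 0.17, and without HIF1A siRNA replicate 2 the median was 0.53. Without replicate 2 in any group, 5 members were called, DDX60, HERC6, IFI35, IFIT1 and OAS3. The share of all genes called in this fit and in the others of this paragraph is not given here. Calls also appeared without HIF1A siRNA replicate 2 (IFI35), without HIF2A siRNA replicate 1 (PARP9) and without HIF2A siRNA replicate 2 (DDX60).

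**Figure D4:**
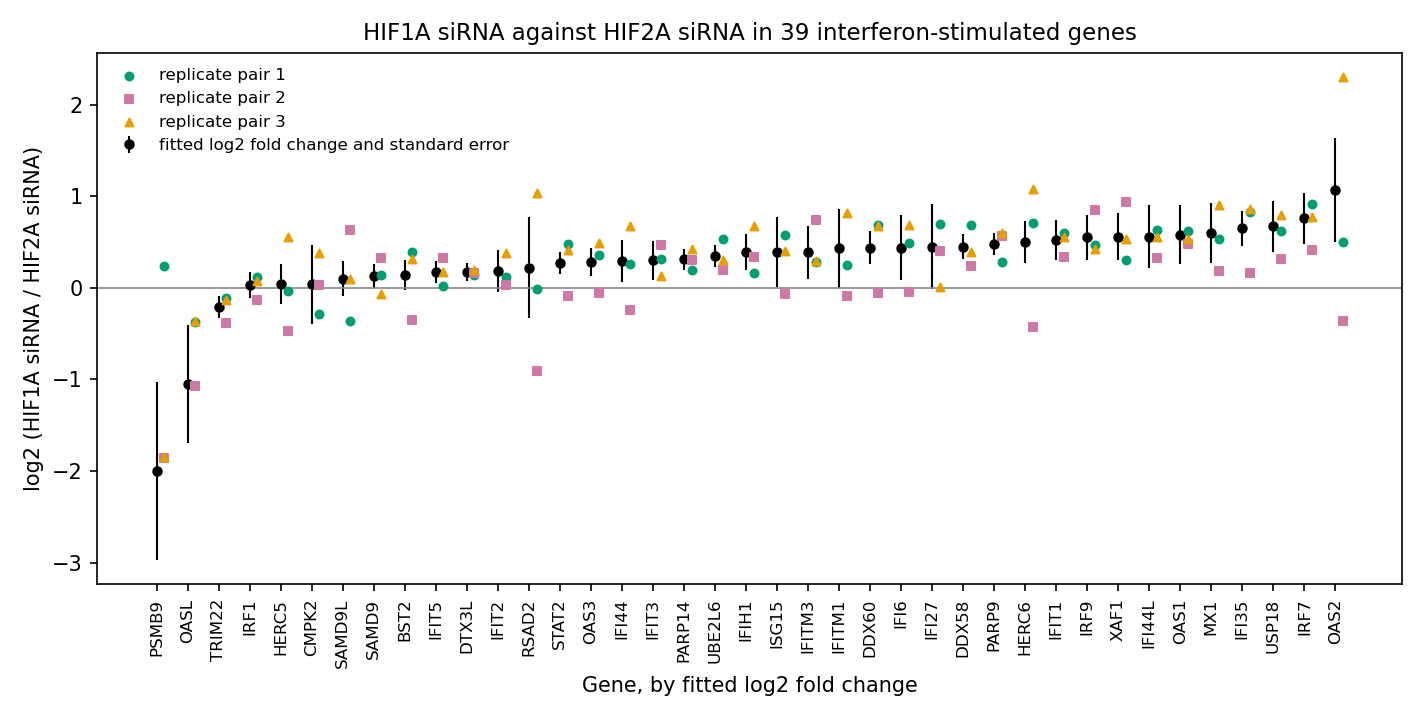
Fitted log2 fold change of HIF1A siRNA against HIF2A siRNA with its standard error (black) and the log2 ratio in each replicate pair (coloured) for 39 interferon-stimulated genes, ordered by fitted value. The fitted value is above 0 for 36 genes, and PSMB9, OASL and TRIM22 are below.

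The interaction term, which compares the double knockdown with the sum of the single changes, called 0 members by edgeR (0.0% of all genes tested were called), with 1 member at an unadjusted p under 0.05, DDX58, at −0.42 (SE 0.19). Of the 13000 genes tested, 115 were above 0 and 203 below at that p. DESeq2 called 0 as well, with 0 at an unadjusted p under 0.05. The smallest adjusted p of the 39 members was 0.999.

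Other genes of the interferon relay were read from a list of 71, of which 67 were in the files and 50 passed the filter. None of the ligands looked up passed: IFNA1, IFNA2, IFNB1, IFNK, IFNW1 and IFNG had 0 counts in all libraries and IFNE had 0 to 4. The type III ligands were sought as IL29, IL28A and IL28B, symbols that were not in the files, so no level is given for them. None of the 50 was called by edgeR with HIF1A siRNA or HIF2A siRNA. In the double knockdown 7 were called, 3 higher and 4 lower, where 10.3% of all genes were called. The receptor subunit of interferon gamma, IFNGR1, rose by 0.87 on the log2 scale (SE 0.15, adjusted p = 0.00186, edgeR), from 23.7, 27.8 and 27.2 CPM to 47.7, 42.6 and 55.3 CPM, without overlap. TLR3, the endosomal sensor of double-stranded RNA, fell from 18.9, 15 and 15.2 CPM to 9.35, 9.55 and 8.33 CPM (log2 fold change −0.85, SE 0.16, adjusted p = 0.00291, edgeR), also without overlap.

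The remaining calls of that list were SOCS3, an inhibitor of cytokine signalling, and APOL6, both higher (log2 fold change 0.69 and 0.35), and the guanylate-binding proteins GBP3 and GBP1 and the antigen-presenting HLA-B, lower (−0.63, −0.58 and −0.45). The interferon receptor IFNAR1, the kinase JAK1 and the RNA-activated kinase EIF2AK2 were not called in any comparison with control. What the replicate numbers stand for beyond a biological replicate is not given in the sources used here, and the source of the replicate pattern was not tested.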

How the data were processed

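Total RNA of 12 RCC4 cultures was made into directional polyA libraries. Per the methods and the submitters' processing notes, the authors trimmed adaptors with Trim Galore 0.3.3, aligned to GRCh37 (hg19) with HISAT2 2.05, removed non-uniquely mapped fragments with Picard 2.0.1 and counted fragments per UCSC gene with HTSeq 0.5.4p3 in intersection-strict mode. The values deposited by the authors are raw counts per gene symbol, without normalization; the strand setting of the counting is not given in the sources used here.

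From these counts, CPM values were computed with TMM scaling. Groups were compared by edgeR 4.0.16 (R 4.3.3; quasi-likelihood F test) on all 12 libraries in 1 fit, with the replicate number as a block as in the study's methods, a filter on low genes by filterByExpr (scaled counts of 10 or more in 3 libraries, and 15 in total) and Benjamini-Hochberg adjustment over 13000 genes; a gene with an adjusted p under 0.05 was called. Standard errors were the fitted change divided by the square root of F. Ratios within pairs used CPM + 0.5. Shares of variance are sums of squares of log2(CPM + 0.5) for replicate number, siRNA and remainder, pooled over genes.

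The pairing comes from the methods, which pair conditions by biological replicate. Same-numbered libraries of different groups deviated together from their group means, with correlations over all genes from 0.0991 to 0.813 in 18 pairs of libraries, against −0.724 to 0.527 for different numbers; over the members alone these were −0.245 to 0.831 and −0.833 to 0.623. The labels do not say how replicates were cultured apart. The p-values measure the spread left among these samples after differences between replicate numbers are taken out by the block.

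The depth of 13263168 to 20451433 counts per library limits the precision of genes with few counts. The script was tested on simulated data. The alternatives were DESeq2 1.42.0 size factors, the DESeq2 test, no filter or a stricter one, no replicate block, only some libraries in the fit, 0.1 or 1 CPM added, an adjusted p under 0.1, and each library or replicate number left out. The members and gene lists were chosen with earlier results of these data known. Values by library were planned for the members called against control siRNA, for the 5 with the largest fitted change in each of those comparisons and for 15 representatives of the roles; the other members given values were chosen after these were seen. Some genes of the lists are not reported here.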

Additional observations from a re-analysis of the deposited data

How the results depend on the processing

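Counts of called members moved with the settings as follows, with the reported counts being 2 for the double knockdown against control siRNA, 1 where it was set against HIF1A siRNA, and 0 elsewhere. Without the filter and with the DESeq2 test they were 1 for HIF1A siRNA against control siRNA and 2 for HIF1A siRNA against HIF2A siRNA. Without the replicate block, that is without the pairing of libraries by number, 0 were called for the double knockdown against control siRNA and 0 against HIF1A siRNA; in the other comparisons the block changed no count of calls. With DESeq2 size factors 1 was called for the double knockdown against control siRNA. With only the libraries compared, 7 were called for the double knockdown against control siRNA, 4 against HIF1A siRNA and 1 for HIF1A siRNA against HIF2A siRNA, and at an adjusted p under 0.1 there was 1 in the last. For the double knockdown against control siRNA 3 were called at an adjusted p under 0.1 and 3 with the DESeq2 test. When a library or a replicate number was left out, the counts ranged from 0 to 5 for HIF1A siRNA against control siRNA, 0 to 6 for the double knockdown against control siRNA, 0 to 6 against HIF1A siRNA and 0 to 5 for HIF1A siRNA against HIF2A siRNA, and stayed at 0 for HIF2A siRNA against control siRNA, the double knockdown against HIF2A siRNA and the interaction. The median log2 fold change of the double knockdown ranged from −0.20 to 0.18, and the share of variance that went with replicate number from 41.4 (without replicate 1) to 72% (without replicate 2). The cause of these shifts was not tested. Of the fitted values of the 22 tested members named by rule, 24 of 480 had the other sign under an alternative for HIF1A siRNA, 54 of 480 for HIF2A siRNA and 26 of 458 for the double knockdown, none of them called in either fit. With 3 libraries a group, the members' standard errors against control siRNA had a median of 0.22 to 0.23 on the log2 scale, which limits what can be called, and PSMB9, OASL, OAS2, RSAD2 and CMPK2 are limited by counts below 10 in some library.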
